A study of Arabidopsis thaliana with 18 samples.

Results

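The segment described here is a stretch of neighbouring loci on chromosome 5 of Arabidopsis thaliana, from AT5G49520 to AT5G61610 in locus order, in which transcripts of most genes were more abundant in AOpro(mut)-AO than in AOpro(wt)-AO shoots. It was found as a run of neighbouring genes raised in AOpro(mut)-AO plants before N starvation, so the line difference on those arrays chose the members. That difference is given below as a description. Nothing is read from the counts of members that passed a threshold on those arrays. RefSeq (assembly TAIR10.1) places 1382 loci in this interval, 1299 of them protein coding, and the array carries a probe for 1265. After 13 loci were left out, 1252 loci with a probe remained, and 1021 of them (81.5%) were well above background on all 3 arrays of at least 1 group. These 1021 genes are the members, 4.85% of the 21060 genes tested in the series, and the other 231 loci with a probe were too dim to be tested.

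Neighbouring genes of a plant chromosome arm are mostly transcribed from promoters of their own, and this interval holds genes of unrelated function, among them histones, chaperones, ribosomal proteins, chloroplast enzymes, receptor kinases and developmental regulators. The amount of a transcript reflects both its synthesis and its decay, and some transcripts are held at a set level by feedback while others are not. Many stress and nutrient genes are switched on and off by regulators of their own.

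The plants were ao knockouts in the Col background that carried AO, the gene of aspartate oxidase (the enzyme that opens de novo NAD synthesis), as a transgene under its own promoter. In AOpro(wt)-AO plants (labelled wild-type AO line) the promoter was intact, and in AOpro(mut)-AO plants (labelled nitrate-non-inducible AO line) the site through which nitrate raises AO was mutated. Each genotype was represented by 1 transgenic line, so genotype and line cannot be told apart, and the genomic DNA of the lines was not analysed here. Shoots were taken after 17 days of hydroponic growth on complete medium (0d), after a further 3 days without N (N starvation), or after those 3 days followed by 24 h with 10 mM KNO3 (resupply), from plants otherwise untreated, with 3 arrays for each line and stage. The 17 days are those of the sample records, and the paper states a longer growth on diluted MS medium. Each array held RNA of the pooled shoots of a few seedlings, so the p-values below measure the spread between such pools.

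The 18 one-colour arrays were alike in brightness. The 75th percentile of signal was 2221 to 3122, the share of gene probes read as well above background was 72.7 to 76.3%, 0 spots were saturated and 3 to 91 spots per array carried outlier marks. All levels below are log2 of the processed signal minus the 75th percentile of its array, on which 0 is a bright probe, and levels are compared only within a probe. AO itself, which lies on chromosome 5 outside the segment, was lower in AOpro(mut)-AO plants by a log2 difference of -2.85 before N starvation, -2.38 after it and -2.12 after resupply. The shoot markers RBCS1A and CAB1 were bright on all 18 arrays, and the root hair markers EXPA7, EXPA18 and XTH14 were well above background on 1, 0 and 1 arrays. LHCB2.1, also listed as a shoot marker, was well above background on all 18 arrays but differed between the lines. Its mean level was -0.79 in AOpro(wt)-AO against 0.13 in AOpro(mut)-AO plants before N starvation, -0.73 against 1.08 after it and 0.31 against 1.20 after resupply.

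Before N starvation the members were shifted upwards together. Their median line difference, AOpro(mut)-AO minus AOpro(wt)-AO, was 0.93 on the log2 scale, a 1.90-fold difference, against -0.02 over the 20027 other genes outside the segment. Of the 1021 members, 984 had a positive difference and 90% lay between 0.18 and 1.55. In 925 members every AOpro(mut)-AO array was above every AOpro(wt)-AO array, a pattern that 26.1% of all tested genes showed. At an adjusted p of at most 0.05 with no minimum fold, 916 members were higher and 9 lower in AOpro(mut)-AO, where 19.3% and 19.3% of all tested genes were. A difference of at least 2-fold with an adjusted p of at most 0.05 in the higher direction was reached by 387 members (3.51% of all tested genes) and in the lower direction by 3 (2.27%). Since these arrays chose the interval, nothing is read from these counts.

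The same shift was measured on the arrays of the other 2 stages, which had no part in finding the interval. The filter on dim probes (well above background on all 3 arrays of at least 1 group) did use them. Through it, 42 members passed in AOpro(mut)-AO groups only and 1 in AOpro(wt)-AO groups only, so these had to differ. The median line difference of the 1021 members was 0.93 after N starvation (1.90-fold) and 0.95 after resupply (1.93-fold), where that of the other genes was -0.02 and -0.01. After N starvation, 408 members (40.0%) passed the threshold of 2-fold and adjusted p (limma) in the higher direction, where 3.96% of all tested genes did, and 6 in the lower direction, where 3.25% did. After resupply, 424 members (41.5%) were higher, where 4.43% of all tested genes were, and 5 were lower, where 2.46% were. Because the common shift falls just short of 2-fold, the threshold divides the members near their median. At an adjusted p of 0.05 with no minimum fold, 929 members were higher after N starvation (26.5% of all tested genes) and 928 after resupply (25.4%), and 15 and 17 were lower (25.5% and 21.9%). The arrays of AOpro(mut)-AO lay above all those of AOpro(wt)-AO in 932 members after N starvation and 925 after resupply, where 31.6% and 27.6% of all tested genes showed this. In bulk shoots, a different number of cells of a type and a different amount of RNA per cell cannot be told apart for any of these genes. With the normexp background correction, 246 members in place of 424 passed the 2-fold threshold after resupply.

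The shift was nearly the same on every array. Each gene was centred on its mean level over the 18 arrays, and the median of all other genes was subtracted from that of the members on each array. The 9 AOpro(wt)-AO arrays gave -0.495 to -0.438 and the 9 AOpro(mut)-AO arrays 0.465 to 0.484, values that lie around 0 because of the centring, so that the distance between the lines is what was measured. The groups of the 2 lines did not overlap at any stage, and treatment did not separate the arrays of a line. The widest spread was that of AOpro(wt)-AO after resupply (-0.470 ± 0.029, SD, n = 3), and the other 5 groups had an SD of 0.004 to 0.007. Arrays of both lines shared a slide in 7 cases, and within them the median line difference of the members was 0.89 to 0.96.

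**Figure D1:**
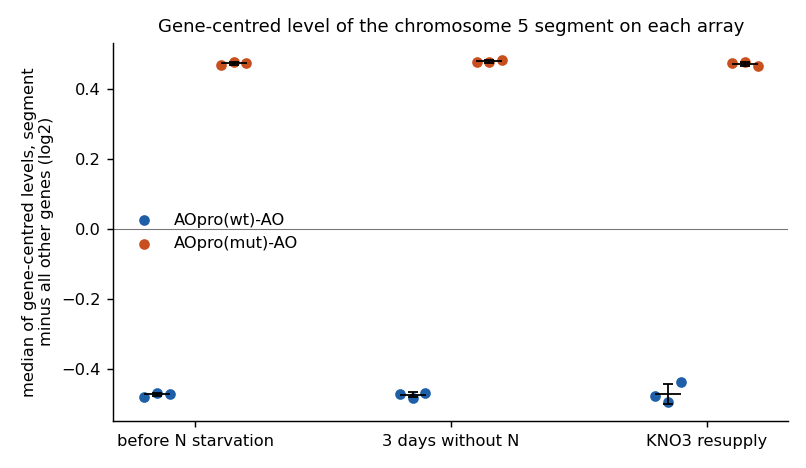
Median log2 level of the 1021 members minus that of all other tested genes, each gene centred on its mean over the 18 arrays (vertical axis, log2), on each of the 18 arrays, grouped by stage, 1 point an array. The AOpro(wt)-AO arrays lie between -0.495 and -0.438 and the AOpro(mut)-AO arrays between 0.465 and 0.484.

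The shift began and ended within a few genes. The 10 genes before it had median line differences of 0.08 before N starvation, 0.15 after it and 0.14 after resupply, and the first 10 members 0.90, 0.84 and 0.85. The last 10 members had 0.98, 0.83 and 0.78, and the 10 genes after them -0.06, -0.13 and -0.08. Just outside the proximal end, PFD3, a prefoldin subunit, had line differences of 0.10, 0.19 and 0.19 at the 3 stages, AT5G49500 0.30, -0.03 and 0.21, and CP1 0.06, 0.50 and 0.67. Just inside it, WRKY48, a WRKY transcription factor, had 1.89, 1.51 and 1.87, AT5G49525 0.89, 0.60 and 0.80, and AT5G49530 1.03, 0.97 and 0.92. At the distal end, the last members were AT5G61590, the ethylene response factor DEWAX, with 1.11, 0.97 and 0.51, ERF104, another of that family, with 0.85, 0.83 and 0.83, and AT5G61610 with 1.60, 1.91 and 1.56. The next genes were PMSR1, a peptide methionine sulfoxide reductase, with 0.11, -0.41 and -0.04, the cyclin gene CYCP4;2, which was dim (-0.10 and -0.56 at the later stages), and AT5G61660 with -0.55, -0.15 and -0.11. These genes beside the threshold are given as a description. The annotation continues past both ends of the segment, with 3316 tested genes of chromosome 5 before it and 561 after it.

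**Figure D2:**
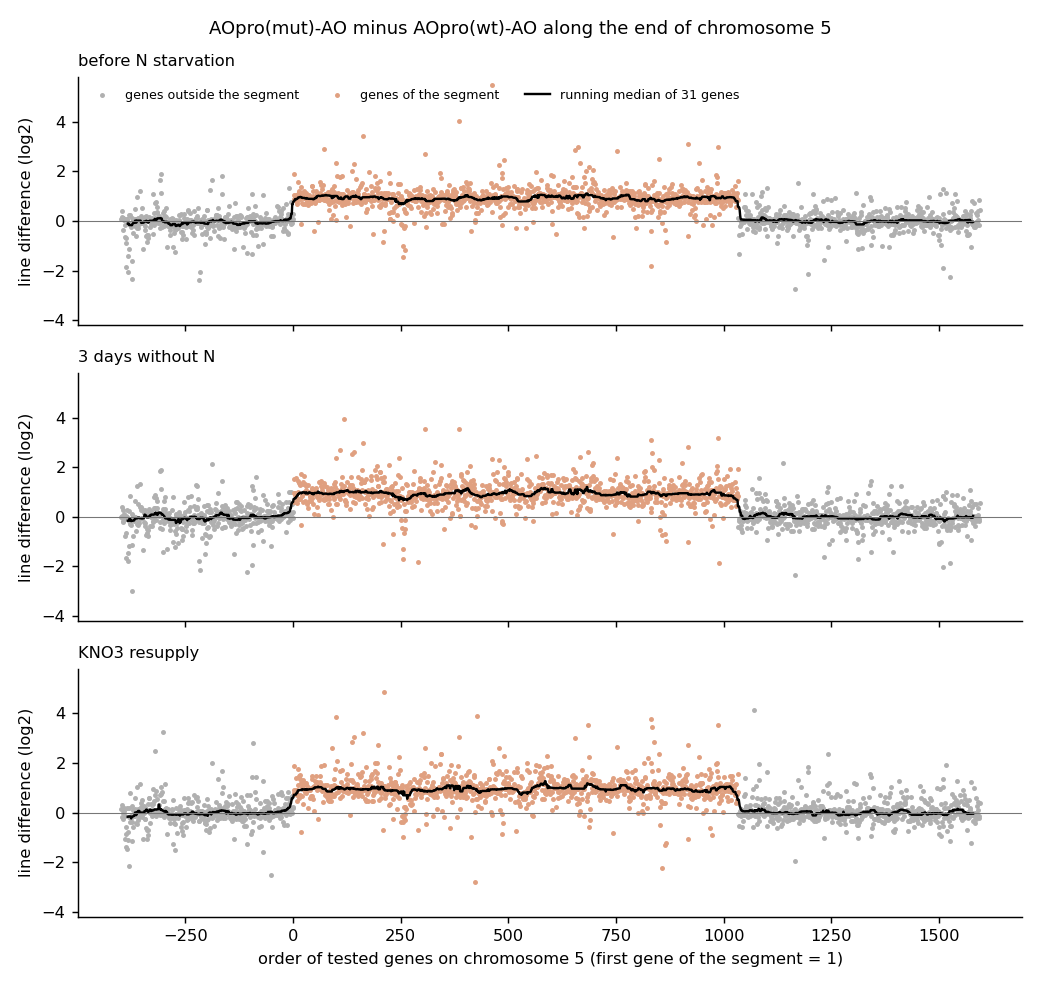
Line difference (AOpro(mut)-AO minus AOpro(wt)-AO, log2) of tested genes of chromosome 5 in locus order, 1 panel a stage, with a running median of 31 genes. The line stays near 0 outside the segment and near 0.9 inside it at all 3 stages, and single genes scatter to both sides.

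Within the segment the shift was even along its length. In 10 consecutive stretches of 102 or 103 members, the median line difference was 0.88 to 0.98 before N starvation, 0.85 to 1.00 after it and 0.88 to 1.01 after resupply. It depended somewhat on how bright a gene was. The 340 dimmest members had medians of 1.00 after N starvation and 1.101 after resupply, the 340 of middle brightness 0.94 and 0.96, and the 341 brightest 0.88 and 0.87. The scatter around these medians, as a robust SD, fell from 0.57 and 0.57 in the dimmest to 0.23 and 0.19 in the brightest.

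To ask which members followed the common shift, the line difference of each gene was set against the median of its own region, the segment for members and all other genes for the rest, and that deviation was tested with limma after N starvation and after resupply. A gene was placed above or below its region where the deviation was at least 0.5 in that direction with an adjusted p of at most 0.05 at both stages, with it where the deviation was under 0.5 at both, and was left unresolved otherwise. Of the 1021 members, 717 (70.2%) moved with the common shift, where 72.6% of all tested genes stayed with their region. There were 72 members (7.05%) above it and 55 (5.39%) below it, where 5.75% and 5.07% of all tested genes were above and below theirs, and 177 (17.3%) were unresolved (16.5%). Of the 72 members above, 6 were not well above background on any AOpro(wt)-AO array of either later stage. The scatter of the members around their raised median, as a robust SD, was 0.34 after N starvation and 0.31 after resupply, and that of the other genes around theirs 0.31 and 0.28. Where several probes of a member were tested, as in 290 members, their line differences lay within 0.5 of each other at both stages in 271.

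The members of each kind differed in the brightness of their probes. The median level was -3.51 for the 72 members above the shift, -0.54 for the 55 below it and 0.36 for the 717 that moved with it, and 55 of the 72 were among the 340 dimmest members. The annotated gene length, which played no part in the placement, had a median of 1933.5 bp above, 2089 bp below and 2400 bp with the shift. Before N starvation, the median line difference was 1.46 in members above the shift, 0.14 in those below and 0.92 in those with it. Across members, the line differences after N starvation and after resupply had a Pearson correlation of 0.762 (Spearman 0.779, n = 1021 genes, which are not independent replicates), and across the other genes 0.724. When the shift was taken as a smooth trend with brightness, 48 of the 72 members stayed above it and 53 of the 55 below it. In all, 51 members were above that trend and 73 below it. With the series matrix values, 69 were above the common shift and 78 below it. Which side held more members thus depended on the processing. With the normexp correction, 30 genes were counted as members above the common shift and 36 as members below the common shift, and the cause was not tested.

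**Figure D3:**
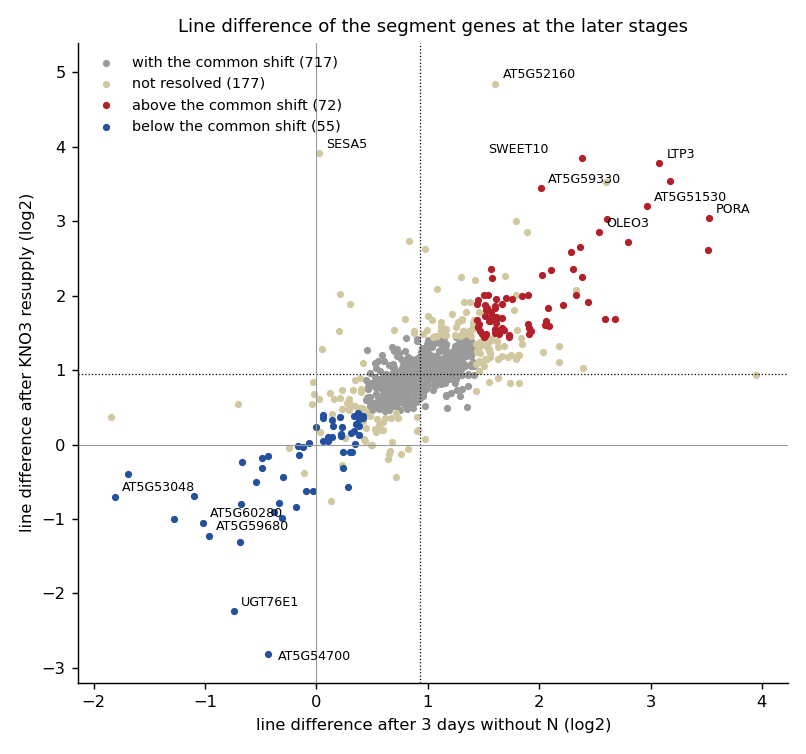
Line difference of each member after N starvation (horizontal axis, log2) and after resupply (vertical axis, log2), 1 point a gene, coloured by its place above, below, with or unresolved against the common shift. Most points gather around 0.93 and 0.95, and the points above and below spread along the diagonal on both sides.

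Among the genes furthest above the shift was LTP3, which encodes a small lipid transfer protein of the cell wall. Before N starvation its level was -0.40, 1.14 and -0.32 in AOpro(wt)-AO and 0.42, 0.25 and 0.85 in AOpro(mut)-AO plants. After N starvation it was -1.01, -0.98 and -1.85 against 1.88, 1.54 and 1.97, and after resupply -0.57, -0.29 and 0.39 against 3.70, 3.50 and 3.66. The arrays of the lines overlapped before N starvation and lay far apart at both later stages, where the line difference was 3.08 ± 0.37 (SE, 8.44-fold, adjusted p = 9.09e-06) and 3.78 ± 0.37 (13.7-fold, adjusted p = 1.19e-06). The deviations from the shift were 2.15 (adjusted p = 0.000284) and 2.83 (adjusted p = 3.2e-05).

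PORA, a protochlorophyllide oxidoreductase that converts the chlorophyll precursor in the light and is abundant in dark-grown seedlings, exceeded the shift at every stage. Its level was -4.37, -4.46 and -4.60 in AOpro(wt)-AO and -0.24, 0.09 and -1.20 in AOpro(mut)-AO plants before N starvation, -3.78, -3.53 and -3.76 against -0.06, -0.76 and 0.31 after it, and -2.04, -2.31 and -2.52 against 0.88, 0.73 and 0.65 after resupply. No array of AOpro(wt)-AO reached any array of AOpro(mut)-AO at the same stage. The line difference was 3.52 ± 0.28 (adjusted p = 1.76e-07) after N starvation and 3.04 ± 0.28 (adjusted p = 8.05e-07) after resupply. A dimmer PORA probe gave 3.52 and 2.86, and another 1.83 and 1.83, which was also above the shift but less so.

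AT5G51530, annotated as related to ubiquitin carboxyl-terminal hydrolases, differed by much the same amount at each stage. Its level was -5.50, -5.76 and -5.73 against -2.28, -2.24 and -2.18 before N starvation, -5.36, -5.61 and -5.43 against -2.50, -2.50 and -2.52 after it and -5.60, -6.06 and -5.93 against -2.69, -2.56 and -2.74 after resupply, AOpro(wt)-AO given first. The arrays of each line stayed within a narrow band, far from those of the other. The line difference was 2.96 ± 0.10 (adjusted p = 2.59e-10) and 3.20 ± 0.10 (adjusted p = 1.6e-10) at the later stages. Differences of this steady kind were also measured for AT5G60260 (2.80 after N starvation and 2.72 after resupply), for AT5G55330, annotated as a membrane-bound O-acyltransferase of the wax synthase kind (2.29 and 2.58), and for RTFL5, of a family of small peptides that shape plant organs (2.31 and 2.36). In these 3 genes the lines did not overlap at any stage. With the normexp correction none of these 3 deviations passed the test at either stage, and that of AT5G51530 passed after N starvation but not after resupply.

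BETA-OHASE 2, a beta-carotene hydroxylase of the chloroplast, resembled LTP3 in that its difference was within the common range before N starvation. Its level was -1.34, -1.48 and -0.85 in AOpro(wt)-AO and -0.91, -0.96 and 0.35 in AOpro(mut)-AO plants at that stage, -2.45, -2.06 and -1.77 against 0.70, 0.23 and -0.04 after N starvation, and -2.42, -1.52 and -1.15 against -0.01, 0.59 and 1.09 after resupply. The lines overlapped before N starvation and were separate afterwards, with differences of 2.39 ± 0.39 (adjusted p = 0.000178) and 2.26 ± 0.39 (adjusted p = 0.00032). Without replicate 1 or without replicate 3 of a resupply group its deviation after resupply no longer passed the test (0.96 without AOpro(wt)-AO replicate 1 and 1.04 without AOpro(mut)-AO replicate 3).

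OLEO3, an oleosin that coats the oil bodies of seeds, was also above the shift. Its level in AOpro(wt)-AO plants was -5.64, -5.36 and -5.37 after N starvation and -6.33, -6.09 and -5.62 after resupply, and in AOpro(mut)-AO plants -2.93, -2.77 and -3.04 and -3.26, -2.99 and -3.23. The lines did not overlap, and the difference was 2.54 ± 0.17 (adjusted p = 3.26e-08) and 2.85 ± 0.17 (adjusted p = 9.91e-09). Seed storage transcripts were present before N starvation, where the summed level of 7 such markers (SESA1 to SESA4, CRA1, CRU2 and CRU3) was -3.41 in AOpro(wt)-AO and -1.65 in AOpro(mut)-AO plants, and near background later, at -6.30 to -5.86 in the 4 groups. SESA1, SESA2 and CRU3 were well above background on 0, 1 and 2 arrays. The part of the seed storage transcripts in the OLEO3 difference was not tested, and with normexp the deviation of OLEO3 did not pass.

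Other members above the shift had known roles in shoot development and at the plant surface, and they were picked for description after their values were seen. SPCH, the transcription factor that starts the stomatal lineage, had a line difference of 1.45 (adjusted p = 5.96e-08) after N starvation and 1.58 (adjusted p = 2.49e-08) after resupply, from levels of -3.10, -2.90 and -2.99 against -1.50, -1.60 and -1.52 and -3.55, -3.28 and -3.14 against -1.93, -1.63 and -1.66. BASL, a polarity protein of the same lineage, had 1.57 and 1.78, CUC2, which sets organ boundaries, 1.67 and 1.70, and CER3, an enzyme of cuticular wax synthesis, 2.08 and 1.59. NEET, an iron-sulfur protein, had 1.64 and 1.49. In each of these 5 genes the AOpro(mut)-AO arrays lay above all AOpro(wt)-AO arrays of their stage. For SPCH the deviation before N starvation was 0.00 and for NEET -0.13, so the excess was measured at the later stages.

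**Figure D4:**
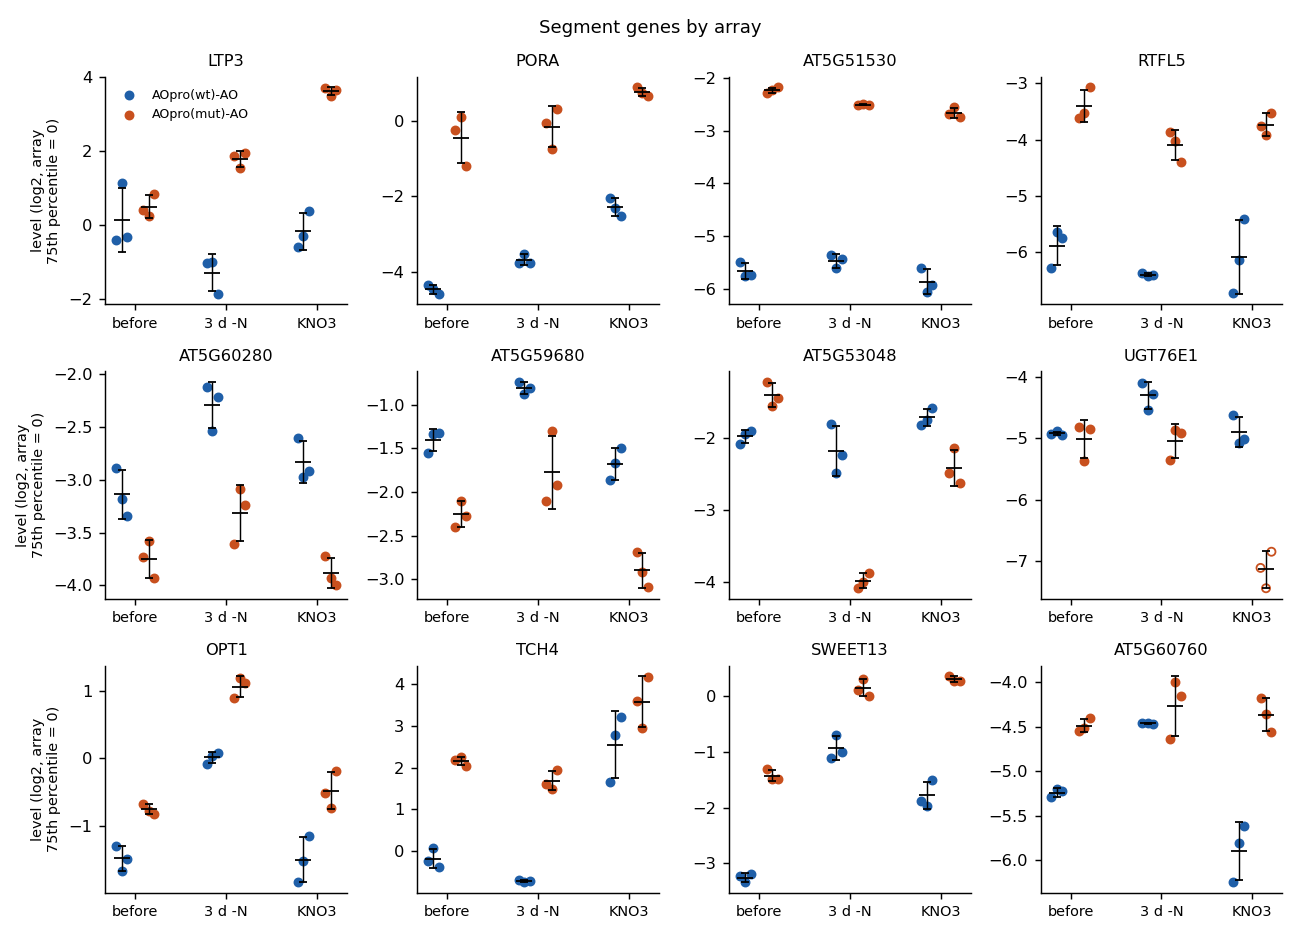
Log2 level on each array (vertical axis) for 12 members by stage (horizontal axis) and line, with bars for the mean ± SD of 3 arrays and open circles for groups with fewer than 3 arrays well above background. LTP3 and PORA show wide gaps between the lines, AT5G60280 and AT5G59680 lie lower in AOpro(mut)-AO, OPT1 and SWEET13 rise with N starvation in both lines, and UGT76E1 falls after resupply in AOpro(mut)-AO.

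The 55 members below the shift differed in the sign of their line difference. It was positive at both later stages in 23 of them, of which 7 had an adjusted p of at most 0.05 at both, and negative at both in 25, and in 20 it passed no test of its own at either stage, with any fold allowed. In 10 it was lower in AOpro(mut)-AO plants with an adjusted p of at most 0.05 at both stages. Probes of some of these genes were bright. THI1, the thiazole synthase of vitamin B1 synthesis, had levels of 7.42, 7.32 and 7.38 in AOpro(wt)-AO and 7.87, 7.70 and 7.61 in AOpro(mut)-AO plants after N starvation, and 7.27, 7.35 and 7.35 against 7.54, 7.69 and 7.57 after resupply. The AOpro(mut)-AO arrays were above the others at both stages, by 0.36 ± 0.08 and 0.28 ± 0.08, and the deviations from the shift were -0.57 (adjusted p = 9.04e-05) and -0.67 (adjusted p = 2.65e-05). A dimmer THI1 probe gave 0.78 and 0.74 and moved with the shift, while another gave 0.42 and 0.35, so the placement of THI1 depended on the probe.

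GNC, a GATA factor of chloroplast development that responds to N supply, had no line difference that passed the test. Its level was 1.18, 1.32 and 1.27 in AOpro(wt)-AO and 1.51, 1.37 and 1.21 in AOpro(mut)-AO plants after N starvation, and 1.40, 1.40 and 1.27 against 1.49, 1.50 and 1.40 after resupply. The arrays of the lines overlapped at both stages, with differences of 0.10 ± 0.08 (adjusted p = 0.286) and 0.11 ± 0.08 (adjusted p = 0.285). HSP90.1, the heat-inducible cytosolic HSP90 chaperone, was at 0.60, 0.57 and 0.39 against 0.04, 0.26 and -0.05 after N starvation and at -0.35, -0.39 and -0.42 against -0.50, -0.55 and -0.57 after resupply. Its AOpro(mut)-AO arrays were the lower ones at both stages, with differences of -0.43 (adjusted p = 0.0293) and -0.16 (adjusted p = 0.438). Its other probe had positive differences of 0.26 and 0.36 and was also below the shift. YSL3, a transporter of metal chelates, differed by 0.22 and 0.14.

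Among the 8 genes furthest below the shift was AT5G60280. This lectin receptor kinase (LecRK-I.8) had levels of -2.12, -2.54 and -2.21 in AOpro(wt)-AO and -3.61, -3.09 and -3.24 in AOpro(mut)-AO plants after N starvation, and -2.61, -2.98 and -2.92 against -3.72, -3.93 and -4.00 after resupply. Every AOpro(mut)-AO array was below every AOpro(wt)-AO array, with differences of -1.02 ± 0.16 (adjusted p = 0.000118) and -1.05 ± 0.16 (adjusted p = 0.000103). AT5G53048, which RefSeq lists as a long non-coding RNA, was at -2.08, -1.95 and -1.90 against -1.21, -1.55 and -1.44 before N starvation, -1.80, -2.48 and -2.23 against -4.08, -3.99 and -3.87 after it, and -1.81, -1.74 and -1.58 against -2.49, -2.13 and -2.62 after resupply. The AOpro(mut)-AO arrays were the higher ones before N starvation and the lower ones at both later stages, where the difference was -1.81 ± 0.15 (adjusted p = 3.46e-07) and -0.70 ± 0.15 (adjusted p = 0.00198). AT5G52070 was at -1.08, -0.98 and -1.06 against -2.20, -2.07 and -2.16 after N starvation and -1.36, -1.60 and -1.47 against -2.15, -2.18 and -2.18 after resupply. The lines were separate, and the differences were -1.10 ± 0.06 and -0.69 ± 0.06. MES18, of the methyl esterase family, differed by -0.67 and -0.80 and AT5G59530 by -0.54 and -0.50. The line difference of AT5G59530 passed no test of its own (adjusted p = 0.136 and 0.173), although its deviation did (adjusted p = 0.000834 and 0.00106), that after N starvation not with normexp.

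Of 1020 pairs of adjacent tested members, 11 (1.08%) were both above the shift and 12 (1.18%) both below it. Of the pairs of adjacent other genes, 0.519% were both above and 0.859% both below their region. These shares were not tested, and the runs named here were picked after their values were seen. From AT5G52720 to AT5G52780, 6 of 7 neighbouring members were below the shift, of which AT5G52740 is annotated with a heavy-metal-associated domain. AT5G52720 was at -4.34, -3.85 and -3.38 in AOpro(wt)-AO and -5.64, -4.84 and -4.92 in AOpro(mut)-AO plants after N starvation, and at -4.25, -5.39 and -4.90 against -5.82, -5.85 and -5.84 after resupply. The lines did not overlap at either stage, and the difference was -1.28 ± 0.32 (adjusted p = 0.00389) and -0.99 ± 0.32 (adjusted p = 0.0195). The other 5 of this run below the shift had differences after N starvation of -1.69 (AT5G52730, well above background on 2 of 3 AOpro(mut)-AO arrays), -0.67 (AT5G52740), -0.12 (AT5G52760), -0.49 (AT5G52770) and 0.23 (AT5G52780). The unresolved member was AT5G52750, at 0.53.

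A second such run held leucine-rich repeat receptor kinases. AT5G59680 was at -0.74, -0.88 and -0.81 against -2.10, -1.30 and -1.92 after N starvation and at -1.86, -1.67 and -1.50 against -2.68, -2.92 and -3.09 after resupply, AOpro(wt)-AO given first, with differences of -0.97 ± 0.17 (adjusted p = 0.000286) and -1.22 ± 0.17 (adjusted p = 4.05e-05). The lines did not overlap at either stage. Its neighbour AT5G59670 was at 3.33, 3.16 and 3.44 against 2.28, 3.06 and 2.51 after N starvation and at 3.01, 2.87 and 3.15 against 1.80, 1.64 and 1.68 after resupply. The lines did not overlap here either, and the difference was -0.69 ± 0.15 and -1.30 ± 0.15. AT5G59660, the next member, had 0.06 and 0.39 and was also below the shift.

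LTP3 stands in a run of the opposite kind, with AT5G59330, annotated as a pseudogene of the lipid transfer protein family, and WOX2, a homeobox factor of early embryo patterning. AT5G59330 was at -4.36, -3.65 and -4.08 against -3.12, -3.97 and -3.67 before N starvation, -5.63, -5.77 and -5.89 against -3.63, -4.04 and -3.58 after it, and -5.84, -5.42 and -5.23 against -1.91, -2.26 and -1.99 after resupply. The lines overlapped at the start and not later, and the difference was 2.01 ± 0.22 and 3.45 ± 0.22. WOX2 differed by 2.59 and 1.69. LTP4, the neighbour of LTP3 on its other side and a close relative of it, was unresolved, with -1.15, 0.80 and -0.87 against -1.74, -2.53 and -2.36 before N starvation, -2.09, -1.73 and -2.96 against -1.40, -2.59 and -2.16 after it, and -2.83, -1.90 and -1.91 against 0.80, -0.24 and -1.15 after resupply. Its AOpro(mut)-AO arrays were the lower ones at the start, overlapped the others after N starvation and were the higher ones after resupply (difference 2.02 ± 0.56, adjusted p = 0.00878). Lipid transfer genes are alike in sequence, so probes of LTP3, LTP4 and AT5G59330 may share signal.

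A line difference can rest on a single array. CRL, a chloroplast envelope protein, was at -6.81, 1.58 and 1.69 in AOpro(wt)-AO and 2.84, 2.79 and 2.67 in AOpro(mut)-AO plants after N starvation. The difference of 3.95 ± 1.50 at that stage came from replicate 1 of AOpro(wt)-AO, and at the other stages CRL differed by 0.90 and 0.93, near the median. AT5G55150, an F-box gene that led the differences before N starvation, was not well above background on any AOpro(wt)-AO array. This gene passed the filter on dim probes only through AOpro(mut)-AO groups and so had to differ. It was at least 17.4-fold brighter in AOpro(mut)-AO plants before N starvation, at least 1.49-fold after it and at least 1.28-fold after resupply, where 2 of 3 AOpro(mut)-AO arrays measured it, each fold a bound against the lowest signal that is well above background on the dim arrays.

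The members were also grouped by function, on 13 lists of 110 loci, of which 105 were members. On the list of cytosolic translation, all 10 members moved with the shift, with medians of 1.13 after N starvation and 1.11 after resupply. In it the ribosomal protein gene AT5G58420 had the highest mean difference (1.15 and 1.30) and AT5G60390, which encodes translation elongation factor EF-1alpha and is nearly identical to other copies, the lowest (0.83 and 0.53). All 6 members on the ubiquitin and proteasome list moved with the shift (medians 0.78 and 0.74), from UBC27 (1.05 and 0.91) to UBC10 (0.50 and 0.56), both ubiquitin-conjugating enzymes. Of 5 core histone genes, 4 did (medians 0.75 and 0.77), among them the histone H4 gene AT5G59970 (0.86 and 0.91), and the histone H2A gene RAT5 was unresolved at 0.35 and 0.52. Over all 1021 members, for comparison, the medians were 0.93 and 0.95 and 70.2% moved with the shift.

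Lists of plastid, chaperone and chromatin genes mostly followed the shift with exceptions on either side. Of 15 plastid genes, 12 moved with it (medians 0.91 and 0.95), PORA and BETA-OHASE 2 were above it and THI1 below. Of 8 chaperones, 6 moved with it (medians 0.91 and 0.81), HSP90.1 was below and the mitochondrial small heat shock protein AT5G51440 was unresolved at 1.05 and 1.45. Of 8 chromatin and genome maintenance genes, 5 moved with it (medians 0.89 and 0.88). The histone deacetylase HDA18 (1.76 and 1.95) and the DNA break repair nuclease MRE11 (1.73 and 1.45) were above it, and the SUMO ligase SIZ1, at 0.57 and 0.65, had the smallest difference of the list while still with the shift. Of 8 clock and light genes, 6 moved with it (medians 0.76 and 0.85), the clock factor BOA was below it (0.21 and 0.37), and COL5, a CONSTANS-like factor, was unresolved at 1.63 and 1.31.

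Regulators, transporters and cell wall enzymes were mixed. Of 9 developmental transcription factors, 5 moved with the shift, SPCH, CUC2 and AGL71 were above it and GNC below, with medians of 0.95 after N starvation and 1.43 after resupply. AGL71, a MADS-box gene linked to flowering, was not well above background on any AOpro(wt)-AO array, so that it passed the filter only through AOpro(mut)-AO groups and had to differ, and was at least 1.73-fold and at least 2.08-fold brighter in AOpro(mut)-AO plants at the 2 later stages, and its difference was not kept with normexp. Of 9 stress transcription factors, 5 moved with it (medians 0.97 and 0.96), WRKY48 and AT5G51190, the ethylene response factor ERF105 (1.61 and 1.95), were above it, and ERF110, another of that family, was below (0.11 and 0.05). The sign of the ERF110 difference was not fixed, since quantile normalization, normexp and the loss of single arrays turned it. Of 14 members on the membrane transport list, 10 moved with it (medians 0.99 and 0.99), the aquaporin PIP2;4 was above it (1.69 and 1.54) and YSL3 below. Of 5 abscisic acid genes, 3 did (medians 1.01 and 1.03), with the protein phosphatase HAI1 at 1.42 and 2.21 and the stress protein gene LTI65 at 0.42 and 0.32, both unresolved. None of 4 xyloglucan endotransglucosylases moved with it (medians 0.66 and 0.22). Of these cell wall enzymes, XTH13 was below it (0.31 and -0.09) and TCH4 unresolved (2.40 and 1.03). Of 4 lectin receptor kinases, LecRK-I.9, a receptor of extracellular ATP, moved with it (0.76 and 0.98), AT5G60280 was below it and the other 2 were unresolved.

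**Figure D5:**
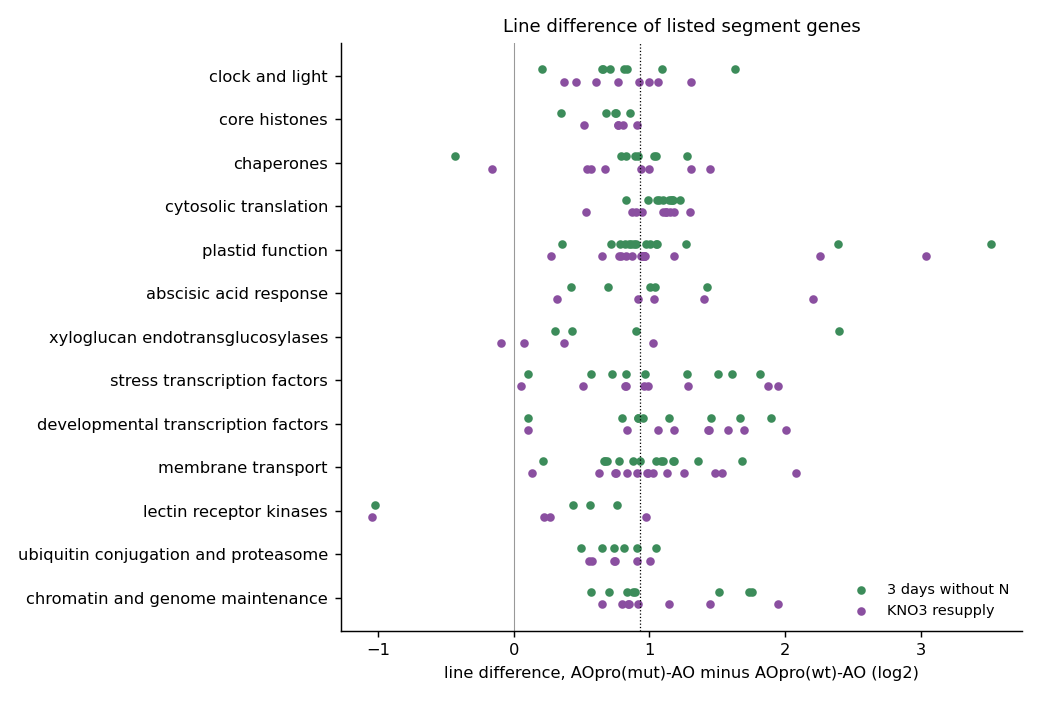
Line difference (log2, horizontal axis) of each member on 13 functional lists (rows), 1 point a gene, green after N starvation and purple after resupply, with the median of all members after N starvation dotted. Points of cytosolic translation and ubiquitin genes stay close to the dotted line, and those of plastid genes, developmental factors and lectin receptor kinases reach far to one side or the other.

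The members did not move as a group with either treatment. The median change was -0.02 with N starvation in AOpro(wt)-AO plants and 0.00 in AOpro(mut)-AO plants, and -0.01 and 0.00 with resupply, so the line difference of the segment stayed in place. At least 1 treatment in at least 1 line changed 87 members (8.52%) by 2-fold with an adjusted p of at most 0.05, and 8.72% of the other genes. These 87 were 21 of the 717 members with the shift (2.93%), 13 of the 72 above it (18.1%), 13 of the 55 below it (23.6%) and 40 of the 177 unresolved (22.6%). The corresponding shares of the other genes, each placed against their own region, were 2.09%, 15.6%, 31.8% and 28.5%. The placement and the treatments share the arrays after N starvation and after resupply, so these shares are a description.

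N starvation changed 49 members in AOpro(wt)-AO plants, 22 upwards and 27 downwards, where 2.74% and 2.01% of all tested genes were called (4.74% in either direction). In AOpro(mut)-AO plants it changed 33, 18 upwards and 15 downwards, where 1.38% and 1.05% were (2.43%). Of these, 9 were raised and 9 lowered in both lines, and 1, LTP3, was called in opposite directions. The share of all tested genes called in both lines or in opposite directions was not computed, so these counts are a description. SESA5, HSD1 and ATPXG2, described below, are among the 9 lowered in both lines, and the filter on dim probes fixed their fall. The comparisons in both lines use arrays taken before N starvation, on which the members were chosen. A clear shared response was that of OPT1, an oligopeptide transporter. Its level was -1.30, -1.67 and -1.49 before and -0.08, 0.04 and 0.08 after N starvation in AOpro(wt)-AO plants, and -0.67, -0.78 and -0.82 and 0.89, 1.19 and 1.12 in AOpro(mut)-AO plants. The starved arrays were above all unstarved ones in each line, and the gene rose by 1.50 ± 0.16 (SE, adjusted p = 3.94e-06) and 1.83 ± 0.16 (adjusted p = 7.86e-06) while it kept the common shift. SWEET13, a sucrose exporter of the phloem, rose from -3.23, -3.34 and -3.20 to -1.11, -0.69 and -1.01 in AOpro(wt)-AO plants (2.32 ± 0.12, adjusted p = 2.18e-08) and from -1.31, -1.48 and -1.49 to 0.12, 0.32 and 0.02 in AOpro(mut)-AO plants (1.58 ± 0.12, adjusted p = 3.7e-06). In each line the arrays before and after did not overlap.

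Its relative SWEET10, also a sugar exporter, rose in both lines. Its level in AOpro(mut)-AO plants went from -6.73, -7.18 and -7.26 to -3.38, -3.18 and -4.01, and in AOpro(wt)-AO plants from -6.71, -7.24 and -7.32 to -6.26, -5.78 and -5.70, with 2 of 3 arrays of each line well above background before N starvation. The rise was 3.53 ± 0.48 (adjusted p = 0.000109) and 1.18 ± 0.48 (adjusted p = 0.0476), and arrays before and after did not overlap in either line. In AOpro(wt)-AO plants AT5G52390, annotated as a putative photoassimilate-responsive protein, rose from -3.44, -3.40 and -3.28 to -0.75, -1.66 and -0.85 (2.29 ± 0.28, adjusted p = 1.29e-05), and in AOpro(mut)-AO plants by 1.59 (adjusted p = 0.00062). AT5G52740, of the run below the shift, rose by 1.98 and 1.58 (adjusted p = 3.85e-06 and 9.75e-05). AT5G55440 rose at least 2.56-fold in AOpro(wt)-AO plants, in which it was not well above background before N starvation. AT5G57720, a factor of the B3 family, rose by 2.76 ± 0.84 (adjusted p = 0.0176) in AOpro(mut)-AO plants. With normexp the calls of SWEET10, AT5G55440 and AT5G57720 were lost.

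The members lowered most by N starvation were genes of the seed. SESA5, HSD1 and ATPXG2 were well above background on 8, 7 and 5 of the 18 arrays and on no starved array. They passed the filter on dim probes only through groups in which they were bright. A fall with N starvation was thus fixed in advance, and their values are given as a description. SESA5, a seed storage albumin, was at -0.84, -2.04 and -4.10 in AOpro(wt)-AO and -1.27, -1.52 and -2.45 in AOpro(mut)-AO plants before N starvation, and was not well above background on any of the 6 arrays after it. It fell at least 34.5-fold in AOpro(wt)-AO and at least 51.5-fold in AOpro(mut)-AO plants. HSD1, a steroleosin of seed oil bodies, fell at least 17.0-fold and at least 41.8-fold, and ATPXG2, a caleosin, at least 3.17-fold and at least 6.54-fold. The summed level of the 7 seed storage markers outside the segment also fell, from -3.41 before N starvation to -6.06 after it in AOpro(wt)-AO plants and from -1.65 to -6.30 in the other line. Of these, SESA3, SESA4 and CRA1 were well above background on all 3 arrays of each line before N starvation. SESA1, SESA2 and CRU3 were so on 0, 1 and 2 of the 18 arrays. The part of the seed storage transcripts in these falls was not tested, and with normexp the fall of ATPXG2 passed in neither line. Among bright genes that fell, the plastid chaperone cpHsc70-2 went from 2.43, 2.53 and 2.42 to 1.28, 1.26 and 1.36 in AOpro(wt)-AO plants (-1.16 ± 0.14, adjusted p = 9.56e-06) and fell by 0.60 (adjusted p = 0.00335) in AOpro(mut)-AO plants, short of 2-fold. LTP3 fell by 1.42 ± 0.37 (adjusted p = 0.00417) in AOpro(wt)-AO and rose by 1.29 ± 0.37 (adjusted p = 0.0122) in AOpro(mut)-AO plants.

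Some responses were called in AOpro(mut)-AO plants and not in AOpro(wt)-AO plants. Among them, picked after their values were seen, were RHD2, the NADPH oxidase of root hair growth, CYP86A1, an enzyme of root suberin synthesis, and MYB36, a regulator of the root endodermis. RHD2 went from -5.30, -5.51 and -4.98 to -4.16, -4.21 and -4.32 in AOpro(mut)-AO plants (1.03 ± 0.27, adjusted p = 0.00734) and from -5.47, -5.30 and -5.47 to -4.88, -5.37 and -5.58 in AOpro(wt)-AO plants (0.14, adjusted p = 0.678). CYP86A1 rose by 1.40 (adjusted p = 0.00382) and changed by 0.65 (adjusted p = 0.103), and MYB36 rose by 1.12 (adjusted p = 0.00808) and changed by 0.17 (adjusted p = 0.651), AOpro(mut)-AO given first. A difference of the responses between the lines is not shown by this, and a dimmer MYB36 probe changed by 0.31 in AOpro(mut)-AO plants. The root hair markers EXPA7, EXPA18 and XTH14 were well above background on 0 of the 3 AOpro(mut)-AO arrays after N starvation.

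Resupply changed 29 members in AOpro(wt)-AO plants, 15 upwards and 14 downwards, where 1.48% and 2.74% of all tested genes were called (4.22% in either direction), and 22 in AOpro(mut)-AO plants, 11 in each direction, where 0.646% and 0.798% were (1.44%). Without AOpro(mut)-AO replicate 2 after N starvation, 13 members were called in place of 22. In both lines 4 members were raised and 3 lowered, and 0 were called in opposite directions by limma. The share of all tested genes called so was not computed, and these counts are a description. TCH4, a touch-inducible xyloglucan endotransglucosylase, rose from -0.69, -0.75 and -0.70 to 1.66, 2.78 and 3.20 in AOpro(wt)-AO plants (3.26 ± 0.33, adjusted p = 5.7e-06) and from 1.62, 1.50 and 1.93 to 3.60, 2.95 and 4.18 in AOpro(mut)-AO plants (1.89 ± 0.33, adjusted p = 0.00114). The resupplied arrays lay above the starved ones in each line. The line difference of TCH4 went from 2.40 to 1.03, at which the lines overlapped, and the latter passed no test without AOpro(wt)-AO replicate 1 (0.58) or AOpro(mut)-AO replicate 3 (0.73). AT5G50915, annotated as a basic helix-loop-helix factor, rose by 2.06 ± 0.19 (adjusted p = 3.24e-06) and 1.06 ± 0.19 (adjusted p = 0.00155), from -1.55, -1.50 and -1.42 to 0.05, 0.72 and 0.95 and from 1.29, 1.28 and 1.02 to 2.33, 1.93 and 2.50. No resupplied array of either line was as low as a starved one.

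PORA rose with resupply in AOpro(wt)-AO plants by 1.40 (adjusted p = 0.00115), and its change in AOpro(mut)-AO plants, 0.92 (adjusted p = 0.0278), was short of 2-fold. AT5G51190 (ERF105) rose in AOpro(mut)-AO plants by 1.25 (adjusted p = 0.000702), and its change in AOpro(wt)-AO plants, 0.91 (adjusted p = 0.00205), was short of 2-fold. CBF4, a drought-responsive AP2 factor, rose at least 1.54-fold in AOpro(wt)-AO plants (adjusted p = 0.0425), a call that normexp, the slide as a block and the loss of any of several single arrays ended. In AOpro(mut)-AO plants AT5G52160, annotated with the lipid transfer and seed storage family, rose by 4.26 ± 1.17 (adjusted p = 0.0163), but 1 of the 3 starved arrays was well above background and the others were not. SESA5 was well above background on 2 of 3 resupplied AOpro(mut)-AO arrays and rose at least 2.81-fold in that line (adjusted p = 0.00551), at levels of -4.91, -4.58 and -8.33. With normexp neither this call nor that of AT5G52160 was kept.

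The fall of OPT1 with resupply mirrored its rise with N starvation. It went down to -1.83, -1.52 and -1.15 in AOpro(wt)-AO plants (-1.52 ± 0.16, adjusted p = 7.91e-06) and to -0.51, -0.73 and -0.19 in AOpro(mut)-AO plants (-1.55 ± 0.16, adjusted p = 5.34e-05). The resupplied arrays of each line were all below its starved arrays. AT5G52740 also fell by 1.56 (adjusted p = 5.27e-05) in AOpro(wt)-AO plants and fell by 1.13 (adjusted p = 0.00182) in AOpro(mut)-AO plants. AACT1, an acyltransferase that makes coumaroylagmatine, fell in AOpro(wt)-AO plants from 0.28, -1.14 and -0.37 to -1.84, -2.29 and -2.09 (-1.66 ± 0.58, adjusted p = 0.0304), a call that normexp and the loss of any of several single arrays ended. In AOpro(mut)-AO plants UGT76E1, a glycosyltransferase, fell from -5.36, -4.86 and -4.91 to -7.11, -7.45 and -6.85 (-2.09 ± 0.19, adjusted p = 2.85e-05), where 2 of 3 arrays were well above background, and in AOpro(wt)-AO plants it went, short of 2-fold, from -4.09, -4.54 and -4.28 to -4.62, -5.07 and -5.02 (-0.60, adjusted p = 0.0185). AT5G54700 reached -9.58, -9.23 and -9.61 in AOpro(mut)-AO plants after resupply, not well above background on any of those arrays. With normexp the falls of UGT76E1 and AT5G54700 did not pass.

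Whether a treatment changed the line difference of a member was tested as an interaction, at an unadjusted p of 0.001. For N starvation the interaction includes the arrays on which the members were chosen, and it passed upwards in 24 members and downwards in 10, where 2.60% and 1.43% of all tested genes did, so these are given as a description. For resupply it passed upwards in 24 members and downwards in 16, where 1.95% and 1.89% of all tested genes did. The counts depended on the arrays included. Without AOpro(wt)-AO replicate 1 after resupply, 56 members passed for N starvation and 58 for resupply. Without others, as few as 15 (AOpro(mut)-AO replicate 1 after N starvation) and 21 (AOpro(mut)-AO replicate 1 after resupply) did, and with normexp 17 and 9 did. At an adjusted p of 0.05 in place of the unadjusted threshold, 67 members passed for N starvation, where 4.72% of all tested genes passed upwards and 3.11% downwards, and 70 for resupply, where 3.18% and 2.98% did.

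Among the members whose line difference changed most with resupply, the interaction was positive in 3 and negative in 3. AT5G51950 was at -6.44, -5.84 and -5.49 against -5.09, -4.74 and -5.45 after N starvation and at -6.49, -6.81 and -5.76 against -3.04, -3.89 and -3.90 after resupply, AOpro(wt)-AO given first. The AOpro(mut)-AO arrays rose and the others did not, for an interaction of 1.91 ± 0.42 (unadjusted p = 0.000414). AT5G60760 was at -4.46, -4.46 and -4.47 against -4.64, -4.00 and -4.15 and then at -6.25, -5.81 and -5.62 against -4.18, -4.36 and -4.55. The AOpro(wt)-AO arrays fell and the others overlapped with their starved level, for an interaction of 1.33 ± 0.23 (unadjusted p = 3.75e-05). In AT5G59330 the AOpro(mut)-AO arrays rose and the interaction was 1.43 ± 0.32 (unadjusted p = 0.00048). In the other direction, AT5G54700 had -2.38 ± 0.38 (unadjusted p = 2.21e-05), UGT76E1 -1.50 ± 0.27 (unadjusted p = 6.59e-05) and AT5G57760 -0.85 ± 0.17 (unadjusted p = 0.000178). The size of the AT5G54700 value is not fixed, since this gene was well above background on 1 of 3 AOpro(mut)-AO arrays after N starvation and on 0 of 3 after resupply. AT5G57760 was at 0.65, 0.72 and 0.42 against 1.00, 0.65 and 0.99 after N starvation and at 0.69, 0.86 and 0.70 against 0.10, 0.30 and 0.15 after resupply, so that the AOpro(mut)-AO arrays passed from overlapping with the others to lying below them. The normexp correction ended the call in each of these 6 genes except AT5G57760. The slide as a block ended it for AT5G51950, AT5G59330 and AT5G57760, the replicate number as a block for AT5G59330, and the loss of any of several single arrays for AT5G51950 and AT5G59330. A dimmer AT5G51950 probe had an interaction of 1.65, which did not pass, and a dimmer AT5G57760 probe one of -0.84, which did.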

How the data were processed

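RNA of pooled shoots was hybridised to 18 one-colour Agilent Arabidopsis arrays, 3 for each line and stage. The authors read spot intensity with Agilent Feature Extraction (12.1.1.1 per the file headers and the submitters' processing notes), and the deposited processed signal is a linear intensity from which that software had removed the background. The deposited series matrix holds the authors' normalized intensity values on a linear scale, each near the processed signal divided by 0.969 to 0.975 of the 75th percentile of its array, with column medians of 0.153 to 0.166, and served as an alternative (floor 0.01). How the authors normalized them is not given in the sources used here.

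Here, control and outlier spots were left out, spots of a probe were averaged, and log2 of the processed signal was taken relative to the 75th percentile of each array. Loci came from the files' probe annotation and symbols from RefSeq. A probe was tested if well above background on all 3 arrays of at least 1 group (29416 of 36163 probes with a gene), and a gene was represented by its brightest tested probe. Means of the 6 groups were fitted with limma (3.58.1, R 4.3.3), and p-values were adjusted by Benjamini-Hochberg over all tested probes. Calls needed an adjusted p of at most 0.05 and a log2 change of at least 1, and interactions an unadjusted p of at most 0.001, all two-sided. Of the members, 978 passed the filter on dim probes through both lines, 42 through AOpro(mut)-AO groups only and 1 through AOpro(wt)-AO groups only, so members of these last kinds had to differ. The number of arrays limits the precision, and no depth applies.

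The members and lists were chosen with earlier results of these data known. Genes named in the text are the 3 tested genes on each side of both ends, the 8 members furthest above and the 8 furthest below the shift by the smaller of their deviations at the later stages among those well above background on all 18 arrays, the 3 largest calls for each treatment, line and direction, the 3 largest resupply interactions in each direction, and for each list the members of largest and smallest mean difference and any called with a treatment. CRL, LTP4, AT5G55150, MRE11, AT5G59660, AT5G52730, AT5G52750 to AT5G52780, RHD2, CYP86A1, MYB36, SPCH, BASL, NEET, CER3, WOX2 and CUC2 were added after their values were seen. Deviations of same-numbered arrays of different groups had r over 0.1 in 11 of 45 pairs. Between the lines before N starvation all 3 pairs did (0.131 to 0.191), and in no other pair of groups did all 3. Of those 3 pairs, the ones of replicate 1 and replicate 3 also shared a slide. The labels do not say that a number marks a shared batch, and the replicate number was used as a block only as an alternative, in which 385 members in place of 387 were higher before N starvation. Alternatives were quantile normalization, normexp (offset 50), the series matrix values, scaling to the median of genes outside the segment, other filters, slide or replicate number as a block, a lowess trend with brightness, a deviation of 0.3, no minimum fold, adjusted p for interactions, and leaving out each array. Figures were drawn with matplotlib 3.10.9. The fits were tested on simulated data. Sequences and coordinates are not used here.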

Additional observations from a re-analysis of the deposited data

Results flagged for a closer look

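The line difference of 6 members changed with resupply between the later stages, by the interaction test (limma, unadjusted p of at most 0.001). The interaction was 1.91 in AT5G51950, 1.43 in AT5G59330, a pseudogene of the lipid transfer protein family, and 1.33 in AT5G60760. It was -2.38 in AT5G54700, in UGT76E1, a glycosyltransferase, -1.50, and in AT5G57760 -0.85. These are the 3 largest in each direction among the 24 and 16 members that passed. AT5G54700 was well above background on 1 of 3 starved and 0 of 3 resupplied AOpro(mut)-AO arrays, so the size of its value is not fixed. The normexp correction ended the call in 5 of the 6, all but AT5G57760, the slide as a block in AT5G51950, AT5G59330 and AT5G57760, and the replicate number as a block in AT5G59330.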

How the results depend on the processing

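The median shift stayed between 0.8246 and 0.9666 in every alternative. It was 0.9064 before N starvation with quantile normalization, 0.9047 and 0.9049 before and after N starvation with the series matrix values, and 0.9666 after N starvation with scaling to genes outside the segment. With no filter on dim probes, the 231 loci otherwise too dim to be tested counted as members as well, 1252 in all. For this larger set the median shift was 0.8742, 0.8631 and 0.8926 at the 3 stages, and 135 genes were below it. With normexp it was 0.904, 0.8417 and 0.8246, 246 members were higher after resupply, 30 were above and 36 below the shift, N starvation changed 29 members in the AOpro(wt)-AO line and 16 in the other, resupply 12 and 11, and the interactions passed in 17 for N starvation and 9 for resupply. Normexp also turned the line difference after resupply of LTI65 (-0.08649), ERF110 (-0.4245) and AGL71 (-0.2616), and quantile normalization that of ERF110 (-0.04104). The causes were not tested.

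With only probes well above background on all arrays, a set with fewer members than the 1021, N starvation changed 19 of them in AOpro(mut)-AO plants. With slide as a block the interactions passed in 21 members for N starvation and 23 for resupply. With a minimum deviation of 0.3, 126 members were above and 100 below the shift. Alternatives chosen after seeing the data gave, with no minimum fold, 916, 929 and 928 members higher at the 3 stages (19.3%, 26.5% and 25.4% of all tested genes). With no minimum fold, N starvation changed 615 and 411 members and resupply 476 and 283 (AOpro(wt)-AO given first). With adjusted p, 67 and 70 interactions passed. Shares of all tested genes were not computed for these treatment counts, nor under the other processing settings of this section. Such counts are set only against the main counts of members.

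Same-numbered arrays had r over 0.1 in all 3 pairs in 1 pair of groups only, the lines before N starvation. There the arrays of replicate 1 and of replicate 3 also shared a slide, so number and slide cannot be told apart for them. With the replicate number as a block the counts of members higher at the 3 stages were 385, 409 and 423 and the interactions 31 and 35, and 1 call of a named gene was lost (the resupply interaction of AT5G59330).

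When each array was left out, the members called with resupply in AOpro(mut)-AO plants were 13 to 24, the N starvation interactions 15 to 56, the resupply interactions 21 to 58, and the median after resupply 0.9364 to 0.9649. ERF110 ranged from -0.1788 to 0.278 after N starvation and from -0.1678 to 0.3334 after resupply. With a single array left out, 65 to 75 members were above the shift and 52 to 58 below it. In every one of these fits alike, 44 of the 72 members stayed above the shift and 40 of the 55 below it. Of 1084 values of named genes in the other alternatives, 1025 were counted as unchanged. For most genes this meant the same direction and side of the threshold. For the line differences of the genes on each side of both ends it meant a move within the combined SD of the replicate arrays.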
